A study of Mus musculus with 8 samples.

Results

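This account covers the solute carrier genes of mouse dendritic cells, chosen as every gene whose single platform symbol begins with Slc and a number, except Slc2a1 and Slc16a3. Each gene was read on its probe set of highest mean signal, and that probe set had to be called Present on at least 2 of 8 arrays. Of 260 such genes on the array, read by 415 probe sets, 140 met the rule, among 7578 genes that met the same detection rule in the whole series. Of these 140, 77 were Present on all 8 arrays and 63 on 2 to 7. The other 120 were not members, 16 of them Present on 1 array and 104 on 0. Slc1a1 was left out because its brightest probe set failed, although another of its probe sets passed.

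The cells were grown in culture from bone marrow of male mice aged 9 weeks and were profiled on Affymetrix MOE430A arrays, with 1 array for each of 8 groups. The mice were VDRmut, whose vitamin D receptor lacks its DNA-binding domain, or VDRwt controls. On day 7 of differentiation, cells of each genotype had VD3 and TNFa, TNFa alone, VD3 alone or neither. VD3, the active hormone form of vitamin D, was added at 1e-06 M and 30 min ahead of TNFa, an inflammatory cytokine used at 50 ng/ml for 4 h. All cells shared the same growth factors and, before differentiation began, dexamethasone. Separate cultures or animals are not stated for the arrays, so a p-value reflects no more than how far these arrays spread, and that spread may be technical. The comparisons ask how TNFa changes the cells, and whether VD3 and its receptor alter that change.

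Solute carriers are membrane proteins that move small molecules across the plasma membrane and the membranes of organelles. Amino acid carriers supply protein synthesis and arginine metabolism, metal carriers import, export or store iron, zinc and copper, and mitochondrial carriers exchange nucleotides and metabolites with the matrix. Nucleotide sugar carriers feed glycosylation in the Golgi, and activation of dendritic cells is known to come with changes in nutrient use.

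The arrays differed in ways that run alongside the treatments. Both TNFa-alone arrays had high signals for the 5′ control of 18S ribosomal RNA, 6847 in VDRmut and 9028 in VDRwt, against 3.5 to 224 on the other 6 arrays. The ratio of 5′ to 3′ actin signal, a sign of RNA quality, was 0.449 and 0.444 on the VDRmut VD3+TNFa and VDRmut untreated arrays and 0.781 to 0.889 elsewhere. VDRwt arrays with TNFa carried another scan day than those without, and the VDRwt VD3+TNFa array alone of the VDRwt arrays was run on a different fluidics protocol. Scan records of the VDRmut arrays were empty. All 12 dendritic cell markers were Present on at least 2 arrays, while 0 of 4 T or NK cell markers on the array were. The dendritic cell markers summed to 43242 (VDRmut) and 39964 (VDRwt) under TNFa alone, against 34875 (VDRmut) and 37345 (VDRwt) untreated. They moved in both directions. Itgax read 1168 (VDRmut) and 999 (VDRwt) under TNFa alone, against 3356.5 (VDRmut) and 4712 (VDRwt) untreated. Ccr7 read 3192 (VDRmut) and 4180 (VDRwt), against 871 (VDRmut) and 832 (VDRwt). Of 7 macrophage markers, 5 were Present on all 8 arrays. The 7 summed to 10549 (VDRmut) and 6990 (VDRwt) under TNFa alone, against 11745 (VDRmut) and 11206 (VDRwt) untreated. The summed signal of the 10 neutrophil and precursor markers on the array ran between 2777 and 28087, with 11477 (VDRmut) and 2777 (VDRwt) under TNFa alone, against 28087 (VDRmut) and 7713 (VDRwt) untreated. The 6 mast cell or basophil markers summed to 908 (VDRmut) and 1428 (VDRwt) under TNFa alone, against 684 (VDRmut) and 404 (VDRwt) untreated. Of these 6, 3 were Present on 0 arrays. Cpa3 was higher under TNFa alone in both genotypes and Kit lower in both. Mcpt8 was higher in VDRwt (504 against 99.7) but not in VDRmut (227 against 233). The part of these differences in the results was not tested. In such bulk samples, fewer cells of a type and less RNA per cell cannot be told apart.

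By transport class, 28 of 51 amino acid and peptide carrier genes on the array were members, 23 of 27 metal carriers, 26 of 33 mitochondrial carriers and 16 of 23 nucleoside and nucleotide sugar carriers. The class of inorganic ion carriers, which holds the anion, cation-chloride and phosphate carriers, had 17 of 47, and sugar, lipid, vitamin and organic ion carriers had 30 of 79. Metal carriers were Present on all 8 arrays for 19 members. Classes follow the family number, so the amino acid class also holds the amine, taurine and creatine carriers of family 6. Slc9a3r1 and Slc9a3r2, which encode scaffold proteins, and Slc4a1ap, which encodes an adaptor, carry the name without being carriers. Just inside the detection rule were 9 genes Present on exactly 2 arrays. Among them Slc22a5, Slc22a26 and Slc46a3 were Present only under TNFa alone, Slc19a2 only under VD3+TNFa and Slc41a3 only in untreated cells. Their detection therefore already follows a treatment. Just outside it, Slc7a5, the light chain of a large neutral amino acid carrier, was Present only on the VDRwt untreated array, with signals of 12.5 to 282 over the 8 arrays.

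TNFa alone changed 15 of the 140 genes at an adjusted p under 0.05 (limma, with the genotypes standing in as replicates of each treatment), 6 higher and 9 lower. That is 10.7% of members, against 11.1% of all 12832 probe sets tested (5.66% higher and 5.39% lower), so the solute carriers as a whole were called about as often as the array. Leaving out the 5 genes detected on the 2 arrays of a single treatment, Slc46a3 among them, gave 14 of 135 (10.4%), a count added after the data were seen. The count dropped to 1 when VDRwt TNFa was left out, to 2 when VDRwt untreated was, to 2 with signals under 50 raised to 50, and to 1, Slc44a1, with scan day as a block. The scan day block placed the VDRmut arrays, whose scan records were empty, with the VDRwt arrays without TNFa. It is therefore the same term as a genotype difference in the TNFa change, and these cannot be told apart. The median log2 change of the 140 genes was 0.05, against 0.04 over all probe sets. The genes that rose include carriers of choline, neutral amino acids, iron and acetyl-CoA, with Slc22a23 of the organic ion family and the lysosomal Slc46a3. Those that fell carry GDP-fucose, riboflavin, glutamine, glucose 6-phosphate, ornithine and ADP or ATP, among others.

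Genes of the choline carrier family gave changes of opposite sign. Slc44a1, a choline transporter, read 416 (VDRmut) and 439 (VDRwt) under VD3+TNFa, 1386 (VDRmut) and 1764 (VDRwt) under TNFa alone, 340.2 (VDRmut) and 214 (VDRwt) under VD3 and 427 (VDRmut) and 259 (VDRwt) untreated. Both TNFa-alone arrays lay far above the other 6. The log2 change with TNFa alone was 2.23 ± 0.29 (± SE, adjusted p = 0.00306). Leaving out each array in turn kept the call in 8 of 8 fits, and raising signals under 50 to 50 gave an adjusted p of 0.0519. A second, dim probe set of the gene, with a mean signal of 55.4, changed by 0.05 and did not pass. Its relative Slc44a2 read 977 (VDRmut) and 608 (VDRwt) under VD3+TNFa, 329.7 (VDRmut) and 251 (VDRwt) under TNFa alone, 531 (VDRmut) and 564 (VDRwt) under VD3 and 591 (VDRmut) and 519.5 (VDRwt) untreated. Here the TNFa-alone arrays were the lowest pair, and the log2 change was -0.95 ± 0.24 (adjusted p = 0.0367). It was called in 1 of 8 fits that left out an array, and its 2 further probe sets gave -1.19 (adjusted p = 0.149) and -1.14 (adjusted p = 0.106).

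The promoter windows of 4 called genes are shown because these genes include that pair and 2 further genes that moved in opposite directions with TNFa alone. They are RefSeq windows of GRCm38.p6 that reach 250 bases before and 50 after a gene's start, written 5′ to 3′ on the gene's strand, and capitals mark matches to any of the 7 motifs given next.
Slc44a1 (rose), chr4:53440163-53440462, plus strand: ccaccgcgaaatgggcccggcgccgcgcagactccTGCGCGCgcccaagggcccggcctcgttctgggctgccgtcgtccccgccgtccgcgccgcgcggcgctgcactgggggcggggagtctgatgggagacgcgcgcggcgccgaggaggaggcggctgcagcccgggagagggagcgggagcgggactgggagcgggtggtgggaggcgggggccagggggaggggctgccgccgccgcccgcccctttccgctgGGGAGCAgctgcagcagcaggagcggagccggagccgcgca
Slc44a2 (fell), chr9:21320469-21320768, plus strand: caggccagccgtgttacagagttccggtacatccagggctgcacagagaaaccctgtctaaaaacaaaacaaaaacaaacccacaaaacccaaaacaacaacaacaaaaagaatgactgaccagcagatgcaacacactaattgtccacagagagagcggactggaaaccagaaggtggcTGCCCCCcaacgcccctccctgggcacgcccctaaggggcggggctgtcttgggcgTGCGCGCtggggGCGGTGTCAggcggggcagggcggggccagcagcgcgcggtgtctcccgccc
Slc38a2 (rose), chr15:96699679-96699978, minus strand: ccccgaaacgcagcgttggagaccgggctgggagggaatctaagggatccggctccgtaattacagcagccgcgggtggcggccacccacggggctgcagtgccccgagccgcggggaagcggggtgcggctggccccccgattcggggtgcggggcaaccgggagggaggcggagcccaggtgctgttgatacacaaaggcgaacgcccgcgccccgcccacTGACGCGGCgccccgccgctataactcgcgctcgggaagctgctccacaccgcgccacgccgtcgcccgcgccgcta
Slc37a4 (fell), chr9:44396696-44396995, plus strand: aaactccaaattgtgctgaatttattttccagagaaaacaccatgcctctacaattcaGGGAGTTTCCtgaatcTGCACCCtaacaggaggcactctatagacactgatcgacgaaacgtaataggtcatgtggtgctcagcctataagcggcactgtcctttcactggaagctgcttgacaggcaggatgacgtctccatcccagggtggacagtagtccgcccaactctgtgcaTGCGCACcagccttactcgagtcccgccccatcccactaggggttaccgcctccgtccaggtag
Slc44a1 and Slc44a2 have 2 windows each and Slc37a4 has 3, of which the first is printed.

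In all, 105 of the 140 genes had a window, giving 139 windows, against 32851 windows of all RefSeq genes. All 7 motifs searched are given here. They were chosen with member results already seen, were searched on both strands and may overlap. The NF-kB consensus was in 5.04% of member windows, against 4.79% of all windows. The AP-1 motif TGANTCA was in 5.04% of member windows, against 7.81%, and the amino acid response motif TGATGNAAN in 2.88%, against 3.95%. The antioxidant response motif TGACNNNGC was in 15.8%, against 12.4%, and the sterol motif TCACNCCAC in 2.16%, against 1.24%. The metal response motif TGCNCNC, which is short and degenerate, was in 59.7%, against 51% of all windows. The E-box CACGTG was in 12.9%, against 7.15%. No test was made of these shares. Genes that rose with TNFa alone had 6 windows and genes that fell had 12. NF-kB letters were in 0 of the 6 and 1 of the 12, the Slc37a4 window printed above, and E-box letters in 1 and 1. Antioxidant letters were in 2 and 2, metal response letters in 5 and 9, and the AP-1, amino acid and sterol letters in 0 of both sets.

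**Figure D1:**
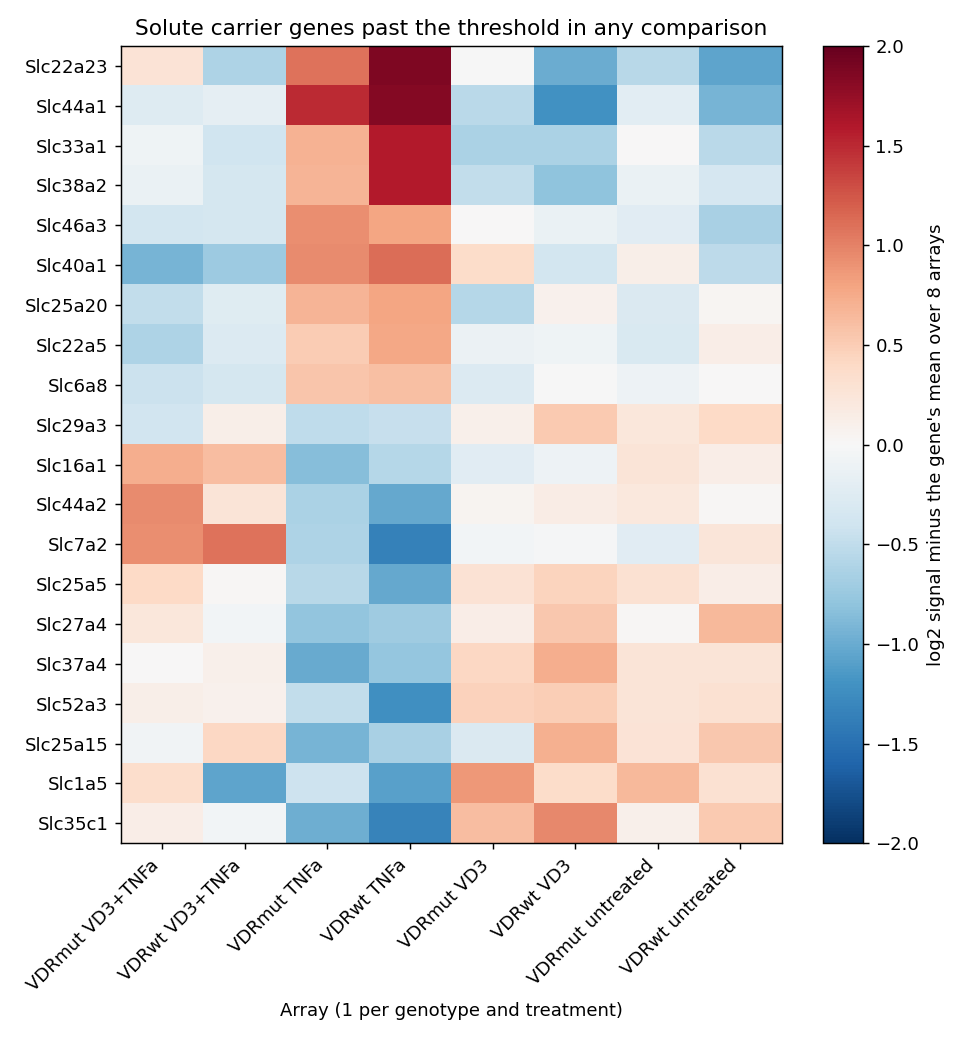
Each row is 1 of the 20 genes past the threshold in any comparison and each column 1 array, with colour for the log2 signal minus the gene's mean over the 8 arrays. The TNFa columns hold the extreme colours for most rows, red for Slc22a23 and Slc44a1 and blue for Slc35c1 and Slc7a2.

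Among amino acid carriers, 1 of 28 rose and 1 fell with TNFa alone, and the class median was 0.29. Slc38a2, a sodium-coupled carrier of neutral amino acids, read 518 (VDRmut) and 448 (VDRwt) under VD3+TNFa, 911 (VDRmut) and 1718 (VDRwt) under TNFa alone, 405 (VDRmut) and 328 (VDRwt) under VD3 and 521 (VDRmut) and 451 (VDRwt) untreated. Its TNFa-alone signals were the highest pair, and the log2 change was 1.37 ± 0.31 (adjusted p = 0.0236). Slc1a5, an exchanger of glutamine and other neutral amino acids, read 133 (VDRmut) and 50.1 (VDRwt) under VD3+TNFa, 78.4 (VDRmut) and 48.8 (VDRwt) under TNFa alone, 189.9 (VDRmut) and 134 (VDRwt) under VD3 and 163 (VDRmut) and 129 (VDRwt) untreated. It was called Absent on both TNFa-alone arrays, and its signal there was at least 2.34-fold lower than in untreated cells (adjusted p = 0.0414). Such bounds were computed against whichever was higher on an array, the signal of the gene itself or the lowest signal of any Present probe set. Here it was the gene itself. The VDRwt VD3+TNFa array was as low as the TNFa-alone arrays for this gene, and the VDRmut VD3+TNFa array was not.

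Slc7a2, a carrier of arginine and other cationic amino acids, read 1401 (VDRmut) and 1564 (VDRwt) under VD3+TNFa, 479.9 (VDRmut) and 286 (VDRwt) under TNFa alone, 705 (VDRmut) and 719 (VDRwt) under VD3 and 629.6 (VDRmut) and 869.5 (VDRwt) untreated. The TNFa-alone pair was the lowest and the VD3+TNFa pair the highest, without overlap with the other arrays. TNFa alone gave -0.997 ± 0.28 (adjusted p = 0.0559), which missed the threshold, and TNFa with VD3 gave 1.06 ± 0.28 (adjusted p = 0.0913), which also missed it. The difference between these changes was 2.05 ± 0.40 (adjusted p = 0.044). It was called in 1 of 8 fits that left out an array. A second probe set with a mean signal of 670 gave 1.96 for that difference (adjusted p = 0.0874), and another with a mean of 171 gave -0.54 (adjusted p = 0.803). Slc7a2 was the 1 member called for this difference, 0.714% of members, against 1.77% of all probe sets. Of the further probe sets of members, 3 also passed for it: a pair for Slc25a5, at 2.04 (adjusted p = 0.0391) and 1.89 (adjusted p = 0.0343), and 1 for the mitochondrial carrier Slc25a29 in the opposite direction, at -1.76 (adjusted p = 0.0489). The brightest probe sets of both genes did not pass.

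Slc3a2, the heavy chain shared by several amino acid carriers, read 1511 (VDRmut) and 1026 (VDRwt) under VD3+TNFa, 2451 (VDRmut) and 1974 (VDRwt) under TNFa alone, 2038 (VDRmut) and 1735 (VDRwt) under VD3 and 1465 (VDRmut) and 1528 (VDRwt) untreated. Its change with TNFa alone was 0.56 ± 0.21 and did not pass (adjusted p = 0.134). Slc15a3, a peptide and histidine carrier of endosomes and lysosomes, read 1117 (VDRmut) and 1078 (VDRwt) under VD3+TNFa, 1594 (VDRmut) and 1359 (VDRwt) under TNFa alone, 1015 (VDRmut) and 1371 (VDRwt) under VD3 and 889 (VDRmut) and 1196 (VDRwt) untreated and did not pass either (adjusted p = 0.2). Slc6a8, the creatine carrier, read 149.5 (VDRmut) and 157 (VDRwt) under VD3+TNFa, 294 (VDRmut) and 304 (VDRwt) under TNFa alone, 167 (VDRmut) and 199.6 (VDRwt) under VD3 and 188 (VDRmut) and 202 (VDRwt) untreated. Its TNFa-alone pair was the highest, with a change of 0.62 ± 0.22 that missed the threshold (adjusted p = 0.117).

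Among 23 metal carriers, 1 rose with TNFa alone and 0 fell, with a class median of -0.08. Slc40a1, ferroportin, the exporter of iron, read 56.2 (VDRmut) and 65.1 (VDRwt) under VD3+TNFa, 208 (VDRmut) and 233 (VDRwt) under TNFa alone, 138 (VDRmut) and 83.7 (VDRwt) under VD3 and 117 (VDRmut) and 75.1 (VDRwt) untreated. The TNFa-alone pair was above the other 6 arrays and the VD3+TNFa pair below them. Its change with TNFa alone was 1.23 ± 0.32 (adjusted p = 0.0427), called in 0 of 8 fits that left out an array. A second probe set with a mean signal of 111 changed by 0.55 (adjusted p = 0.346). Slc31a2, a copper carrier, read 618 (VDRmut) and 681 (VDRwt) under VD3+TNFa, 1003 (VDRmut) and 502 (VDRwt) under TNFa alone, 441 (VDRmut) and 572 (VDRwt) under VD3 and 552 (VDRmut) and 482 (VDRwt) untreated. Slc48a1, a heme carrier, read 443 (VDRmut) and 549.6 (VDRwt) under VD3+TNFa, 428 (VDRmut) and 293 (VDRwt) under TNFa alone, 691 (VDRmut) and 936 (VDRwt) under VD3 and 426 (VDRmut) and 885 (VDRwt) untreated. Neither of these passed in any comparison on its brightest probe set, and a second Slc48a1 probe set fell by 1.10 with TNFa alone (adjusted p = 0.0294).

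Of 26 mitochondrial carriers, 2 fell with TNFa alone and 0 rose. Slc25a5, which exchanges ADP for ATP across the inner membrane, read 4543 (VDRmut) and 3511 (VDRwt) under VD3+TNFa, 2367 (VDRmut) and 1699 (VDRwt) under TNFa alone, 4223 (VDRmut) and 4713 (VDRwt) under VD3 and 4273 (VDRmut) and 3776 (VDRwt) untreated. The TNFa-alone pair was the lowest, and the change was -1.002 ± 0.22 (adjusted p = 0.0203). All 7 further probe sets of this gene also gave negative changes, of -0.39 to -1.52, and 6 of the 7 passed. These probe sets share the same RNA and are not replicates. Slc25a15, the mitochondrial ornithine carrier, read 82.9 (VDRmut) and 116 (VDRwt) under VD3+TNFa, 45.7 (VDRmut) and 55.3 (VDRwt) under TNFa alone, 71.3 (VDRmut) and 143 (VDRwt) under VD3 and 105 (VDRmut) and 126 (VDRwt) untreated. It was Absent on both TNFa-alone arrays, at least 2.29-fold lower than in untreated cells (adjusted p = 0.0371). Slc25a20, which carries acylcarnitines, read 146 (VDRmut) and 173 (VDRwt) under VD3+TNFa, 328 (VDRmut) and 355 (VDRwt) under TNFa alone, 139 (VDRmut) and 217 (VDRwt) under VD3 and 167 (VDRmut) and 210.4 (VDRwt) untreated, and its change of 0.86 ± 0.24 narrowly missed the threshold (adjusted p = 0.0509). Slc25a3, the phosphate carrier, read 2913 (VDRmut) and 2265 (VDRwt) under VD3+TNFa, 2638 (VDRmut) and 2396 (VDRwt) under TNFa alone, 3212 (VDRmut) and 3296 (VDRwt) under VD3 and 3588 (VDRmut) and 3122 (VDRwt) untreated and passed in no comparison.

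**Figure D2:**
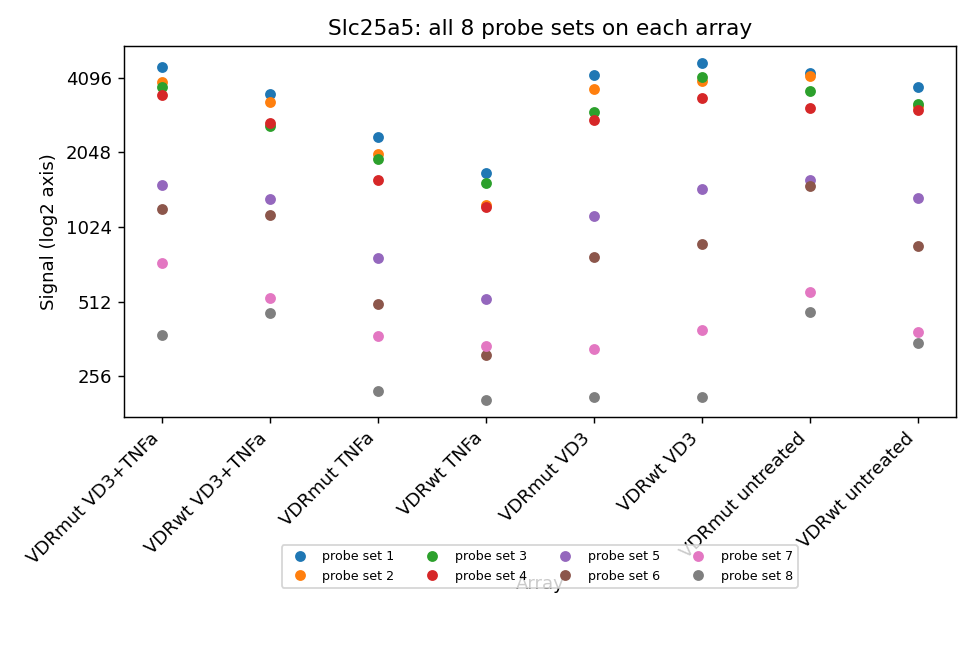
Signal (log2 axis) of the 8 probe sets of Slc25a5 on each array, 1 colour per probe set. For the brightest, the TNFa-alone arrays sit at 2367 in VDRmut and 1699 in VDRwt, against 4273 and 3776 in untreated cells of those genotypes.

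Of 16 nucleoside and nucleotide sugar carriers, 2 fell and 0 rose. Slc35c1, the Golgi carrier of GDP-fucose, read 141 (VDRmut) and 124 (VDRwt) under VD3+TNFa, 65.3 (VDRmut) and 50.9 (VDRwt) under TNFa alone, 197 (VDRmut) and 249.9 (VDRwt) under VD3 and 137 (VDRmut) and 184 (VDRwt) untreated. The TNFa-alone pair was the lowest, and the change was -1.46 ± 0.29 (adjusted p = 0.0139). Slc29a3, a nucleoside carrier of lysosomes, read 426 (VDRmut) and 604 (VDRwt) under VD3+TNFa, 393 (VDRmut) and 403 (VDRwt) under TNFa alone, 595 (VDRmut) and 797 (VDRwt) under VD3 and 653 (VDRmut) and 730.0 (VDRwt) untreated. Its change of -0.80 ± 0.22 passed (adjusted p = 0.0472) but was called in 0 of 8 fits that left out an array. Slc35b1, a nucleotide carrier of the endoplasmic reticulum, read 559 (VDRmut) and 457 (VDRwt) under VD3+TNFa, 338 (VDRmut) and 365 (VDRwt) under TNFa alone, 695 (VDRmut) and 660.3 (VDRwt) under VD3 and 489.9 (VDRmut) and 551 (VDRwt) untreated and did not pass.

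In the sugar, lipid, vitamin and organic ion class, 4 of 30 rose and 4 fell. Besides Slc44a1, the genes that rose were Slc22a23, Slc33a1 and Slc46a3. Slc22a23, a member of the organic ion carrier family, read 164 (VDRmut) and 87.8 (VDRwt) under VD3+TNFa, 287 (VDRmut) and 496 (VDRwt) under TNFa alone, 134 (VDRmut) and 68.2 (VDRwt) under VD3 and 92.0 (VDRmut) and 65.2 (VDRwt) untreated, and its change was 2.28 ± 0.41 (adjusted p = 0.0101). Slc33a1, which carries acetyl-CoA into the endoplasmic reticulum, read 153 (VDRmut) and 123 (VDRwt) under VD3+TNFa, 260.4 (VDRmut) and 483 (VDRwt) under TNFa alone, 104 (VDRmut) and 104 (VDRwt) under VD3 and 162 (VDRmut) and 111 (VDRwt) untreated. Its change was 1.41 ± 0.35 (adjusted p = 0.0334), larger in VDRwt (2.13) than in VDRmut (0.68), a difference that was not tested. Slc46a3, a lysosomal carrier, read 75.5 (VDRmut) and 75.6 (VDRwt) under VD3+TNFa, 185 (VDRmut) and 168 (VDRwt) under TNFa alone, 97.5 (VDRmut) and 88.0 (VDRwt) under VD3 and 83.2 (VDRmut) and 61.8 (VDRwt) untreated. It was Present under TNFa alone and on no other array, at least 2.46-fold higher than in untreated cells. It was therefore tested only because it was high there, and with no detection filter its adjusted p was 0.044.

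Besides Slc44a2, the genes of this class that fell were Slc37a4, Slc27a4 and Slc52a3. Slc37a4, which carries glucose 6-phosphate into the endoplasmic reticulum, read 236 (VDRmut) and 252 (VDRwt) under VD3+TNFa, 117 (VDRmut) and 138 (VDRwt) under TNFa alone, 315 (VDRmut) and 387 (VDRwt) under VD3 and 281 (VDRmut) and 282 (VDRwt) untreated, a change of -1.14 ± 0.22 (adjusted p = 0.0136). Slc52a3, a riboflavin carrier, read 237 (VDRmut) and 231 (VDRwt) under VD3+TNFa, 155 (VDRmut) and 93.1 (VDRwt) under TNFa alone, 302 (VDRmut) and 305 (VDRwt) under VD3 and 261 (VDRmut) and 270.2 (VDRwt) untreated. It was Absent on both TNFa-alone arrays and at least 2.21-fold lower there than in untreated cells (adjusted p = 0.0272). Slc27a4, a fatty acid transport protein, read 262 (VDRmut) and 216 (VDRwt) under VD3+TNFa, 129.7 (VDRmut) and 137 (VDRwt) under TNFa alone, 245 (VDRmut) and 327 (VDRwt) under VD3 and 227 (VDRmut) and 351 (VDRwt) untreated. It was Present on neither TNFa-alone array, at least 2.12-fold lower than in untreated cells (adjusted p = 0.0356). For these 3 genes the TNFa-alone pair was the lowest of the 8 arrays.

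**Figure D3:**
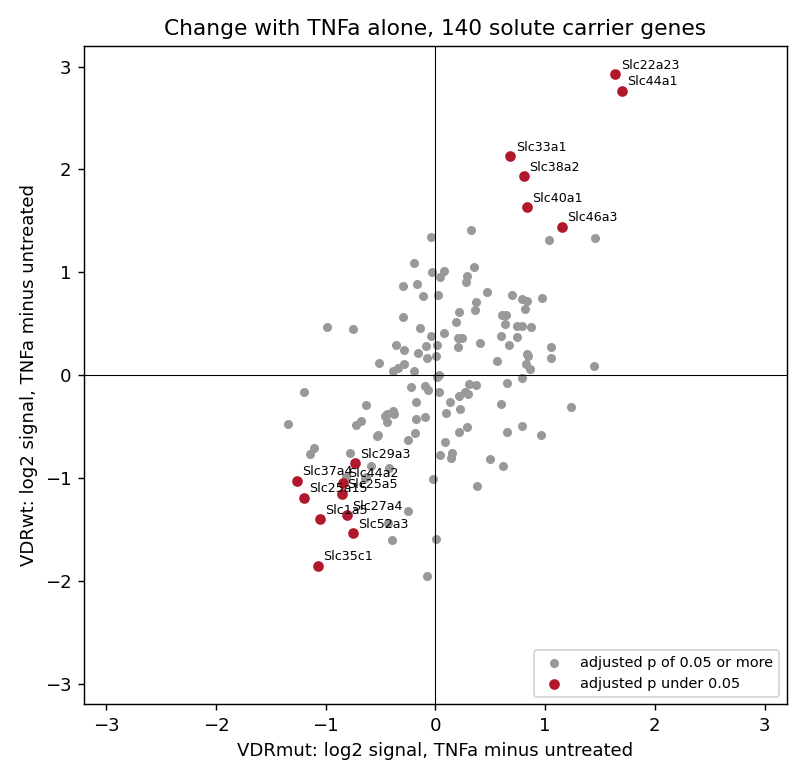
Each point is 1 of the 140 genes, with its log2 difference between TNFa alone and untreated cells in VDRmut (x axis) and VDRwt (y axis). The 15 genes past the threshold, in red, have 1 direction in both genotypes.

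None of the 17 inorganic ion genes passed with TNFa alone on its brightest probe set, and their median change was 0.35. Slc26a2, a sulfate carrier, read 143 (VDRmut) and 37.4 (VDRwt) under VD3+TNFa, 221 (VDRmut) and 321 (VDRwt) under TNFa alone, 105 (VDRmut) and 124 (VDRwt) under VD3 and 107 (VDRmut) and 129 (VDRwt) untreated. Its change was at least 1 in log2 size in both genotypes, yet it did not pass (adjusted p = 0.194). Slc20a1, a phosphate carrier, read 519.8 (VDRmut) and 394 (VDRwt) under VD3+TNFa, 354 (VDRmut) and 370.2 (VDRwt) under TNFa alone, 215 (VDRmut) and 270.3 (VDRwt) under VD3 and 352 (VDRmut) and 325 (VDRwt) untreated. With TNFa alone this probe set changed by 0.10 (adjusted p = 0.843). A second, dim Slc20a1 probe set, Present on 2 arrays, rose by 1.90 with TNFa alone (adjusted p = 0.0373). It read 56.8 (VDRmut) and 66.2 (VDRwt) under TNFa alone and 10.4 to 30.6 on the other arrays. Its detection may therefore have come through the group where it was high. The scaffold gene Slc9a3r1 read 1096 (VDRmut) and 1259 (VDRwt) under VD3+TNFa, 987 (VDRmut) and 1349 (VDRwt) under TNFa alone, 725 (VDRmut) and 869.5 (VDRwt) under VD3 and 769 (VDRmut) and 868 (VDRwt) untreated. Slc27a3, of the lipid class, read 50.5 (VDRmut) and 50.7 (VDRwt) under VD3+TNFa, 155 (VDRmut) and 202 (VDRwt) under TNFa alone, 162 (VDRmut) and 46.3 (VDRwt) under VD3 and 56.3 (VDRmut) and 80.2 (VDRwt) untreated and likewise had a large change in both genotypes without passing (adjusted p = 0.121). In all, 5 genes were higher and 4 lower by a log2 of 1 or more in both genotypes, 3.57% and 2.86% of members, against 4.49% and 2.89% of all probe sets.

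The members not described by array passed in no comparison on their brightest probe sets. Further probe sets of 3 of them passed with TNFa alone. That of Slc25a29 gave 1.38 (adjusted p = 0.011) and that of Slc35a3 1.39 (adjusted p = 0.0438). A dim Slc35a5 probe set, Present on 2 arrays, was higher (adjusted p = 0.0329). It read 57.5 (VDRmut) and 44.7 (VDRwt) under TNFa alone, its highest pair, so its detection may have come through that group. Untreated it read 1.9 (VDRmut) and 10.3 (VDRwt). The 1.9 is under the lowest Present signal of that array, 7.7, so no size is given. The other tested further probe sets of Slc35a5 gave 0.96, -0.23 and -0.06 and did not pass. The Slc25a29 probe set was also lower under VD3+TNFa than under TNFa alone, by -1.23 (adjusted p = 0.0233). Log2 changes with TNFa alone in the whole class of amino acid and peptide carriers ran between -1.23 and 1.37, and its other members were Slc15a1, Slc15a2, Slc15a4, Slc38a1, Slc38a10, Slc43a3, Slc66a2, Slc6a17, Slc6a18, Slc6a2, Slc6a20b, Slc6a3, Slc6a4, Slc6a6, Slc7a11, Slc7a12, Slc7a3, Slc7a4, Slc7a6, Slc7a7, Slc7a8 and Slc7a9. Log2 changes with TNFa alone in the whole class of metal carriers ran between -0.95 and 1.23, and its other members were Slc11a1, Slc11a2, Slc30a4, Slc30a5, Slc30a6, Slc30a7, Slc30a9, Slc31a1, Slc39a1, Slc39a11, Slc39a14, Slc39a3, Slc39a4, Slc39a6, Slc39a7, Slc39a8, Slc39a9, Slc41a1, Slc41a2 and Slc41a3. Log2 changes with TNFa alone in the whole class of mitochondrial carriers ran between -1.20 and 0.86, and its other members were Slc25a10, Slc25a11, Slc25a17, Slc25a2, Slc25a22, Slc25a24, Slc25a28, Slc25a29, Slc25a30, Slc25a33, Slc25a35, Slc25a36, Slc25a37, Slc25a38, Slc25a39, Slc25a4, Slc25a42, Slc25a44, Slc25a45, Slc25a46, Slc25a47 and Slc25a51. Log2 changes with TNFa alone in the whole class of nucleoside and nucleotide sugar carriers ran between -1.46 and 0.67, and its other members were Slc29a1, Slc35a1, Slc35a2, Slc35a3, Slc35a4, Slc35a5, Slc35b2, Slc35b3, Slc35b4, Slc35e1, Slc35f5 and Slc35f6. Log2 changes with TNFa alone in the whole class of inorganic ion genes ran between -0.37 and 1.18, and its other members were Slc12a1, Slc12a2, Slc12a4, Slc12a5, Slc17a3, Slc24a1, Slc26a3, Slc26a6, Slc34a1, Slc4a1ap, Slc4a2, Slc8b1 and Slc9a3r2. For the class of sugar, lipid, vitamin and organic ion carriers these changes ran between -1.15 and 2.28, and its other members were Slc10a3, Slc14a2, Slc16a11, Slc16a6, Slc19a2, Slc22a12, Slc22a26, Slc23a2, Slc27a1, Slc2a10, Slc2a3, Slc2a5, Slc37a2, Slc37a3, Slc50a1, Slc5a2, Slc5a3, Slc5a4a and Slc5a8.

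When VD3 was present on both sides, TNFa passed the threshold for 0 of 140 genes in limma, while 33 (23.6%) had an unadjusted p under 0.05. Over all probe sets 0.803% passed, and 22.3% had an unadjusted p under 0.05. The smallest adjusted p among members was 0.0685, for Slc25a4, a further ADP and ATP carrier. The median log2 change of members was -0.24, against -0.07 over all probe sets. Slc35e4, an orphan of the nucleotide sugar family, read 109.9 (VDRmut) and 13.3 (VDRwt) under VD3+TNFa, 206 (VDRmut) and 261 (VDRwt) under TNFa alone, 222 (VDRmut) and 236 (VDRwt) under VD3 and 169.6 (VDRmut) and 139 (VDRwt) untreated. Its change with TNFa in the presence of VD3 was -2.58 ± 0.68 (adjusted p = 0.0875), and the lowest signal was the Absent one of VDRwt VD3+TNFa, the array with a different fluidics protocol. Slc12a9, of the cation-chloride family, read 143 (VDRmut) and 125 (VDRwt) under VD3+TNFa, 191 (VDRmut) and 119 (VDRwt) under TNFa alone, 301 (VDRmut) and 253 (VDRwt) under VD3 and 135 (VDRmut) and 209 (VDRwt) untreated, a change of -1.05 ± 0.32 (adjusted p = 0.113). That the change passed without VD3 and not with it does not show a difference, which was tested directly above and passed for Slc7a2 alone of the 140 on their brightest probe sets.

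**Figure D4:**
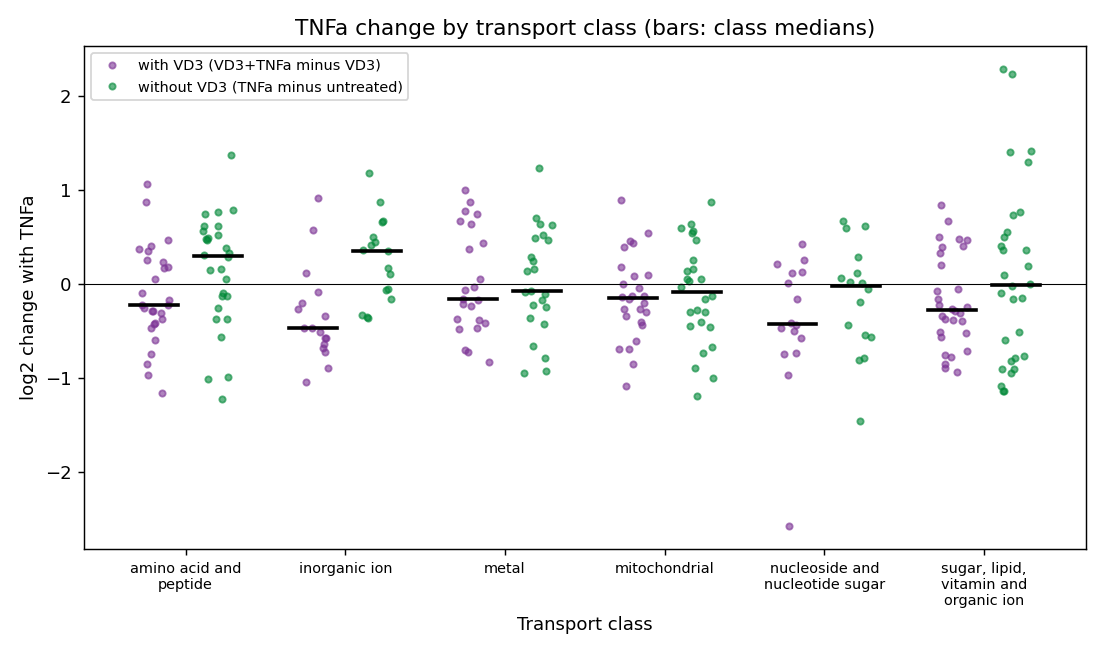
Each point is the log2 change of 1 gene with TNFa, with VD3 present (purple) and without VD3 (green), by transport class, and black bars are class medians. The inorganic ion class has medians of -0.47 with VD3 and 0.35 without it.

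Set directly against TNFa alone, VD3+TNFa differed for 15 of 140 genes, 6 higher and 9 lower, which is 10.7% against 6.97% of all probe sets (3.4% higher and 3.57% lower). This comparison uses the same TNFa-alone arrays as the one with untreated cells, so they are not independent of each other. It also averages the genotypes. For Slc16a1 the log2 difference was 1.57 in VDRmut and 1.20 in VDRwt, and for Slc22a23 -0.81 in VDRmut and -2.50 in VDRwt. Whether these differences depend on the receptor was not tested. The count was 1 without the VDRwt TNFa array, 2 without either VD3+TNFa array and 0 with signals under 50 raised to 50. Slc7a2 was higher by 2.00 ± 0.28 (adjusted p = 0.0067), and its second probe set by 1.87 (adjusted p = 0.0186). Its remaining probe set gave 0.49 and did not pass (adjusted p = 0.743). Slc44a2 was higher by 1.42 ± 0.24, Slc35c1 by 1.20 ± 0.29, Slc25a5 by 0.99 ± 0.22 and Slc37a4 by 0.94 ± 0.22. The 2 further Slc44a2 probe sets gave 0.91 (adjusted p = 0.298) and 0.42 (adjusted p = 0.589) and did not pass. Slc16a1, a lactate and monocarboxylate carrier, read 175 (VDRmut) and 163 (VDRwt) under VD3+TNFa, 58.8 (VDRmut) and 70.8 (VDRwt) under TNFa alone, 90.3 (VDRmut) and 98.4 (VDRwt) under VD3 and 127 (VDRmut) and 116 (VDRwt) untreated. It was higher by 1.39 ± 0.27 (adjusted p = 0.0178), with the VD3+TNFa pair the highest and the TNFa-alone pair the lowest of the 8 arrays.

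Among the 9 genes lower under VD3+TNFa than under TNFa alone, Slc44a1 gave -1.87 ± 0.29 (adjusted p = 0.00851) and Slc40a1 -1.86 ± 0.32 (adjusted p = 0.0124). A second probe set of each did not pass, at -0.65 for Slc44a1 (adjusted p = 0.341) and -1.08 for Slc40a1 (adjusted p = 0.0948). Slc22a23 gave -1.65 ± 0.41, Slc38a2 -1.38 ± 0.31 and Slc33a1 -1.37 ± 0.35. Slc25a20 gave -1.10 ± 0.24 and Slc6a8 -0.97 ± 0.22, while another Slc25a20 probe set, with a mean signal of 129.8, gave -0.26 (adjusted p = 0.629). Another Slc6a8 probe set gave -1.14 and missed the threshold (adjusted p = 0.0561). Slc46a3 was Absent on both VD3+TNFa arrays and at least 2.33-fold lower. Slc22a5, the carnitine carrier, read 86.2 (VDRmut) and 109.8 (VDRwt) under VD3+TNFa, 188 (VDRmut) and 225 (VDRwt) under TNFa alone, 122 (VDRmut) and 125 (VDRwt) under VD3 and 107 (VDRmut) and 145 (VDRwt) untreated, at least 2.12-fold lower. Both were Present under TNFa alone and on no other array, so their detection came through the group where they were high, and without the 5 genes detected in a single treatment the count was 13 of 135 (9.63%).

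**Figure D5:**
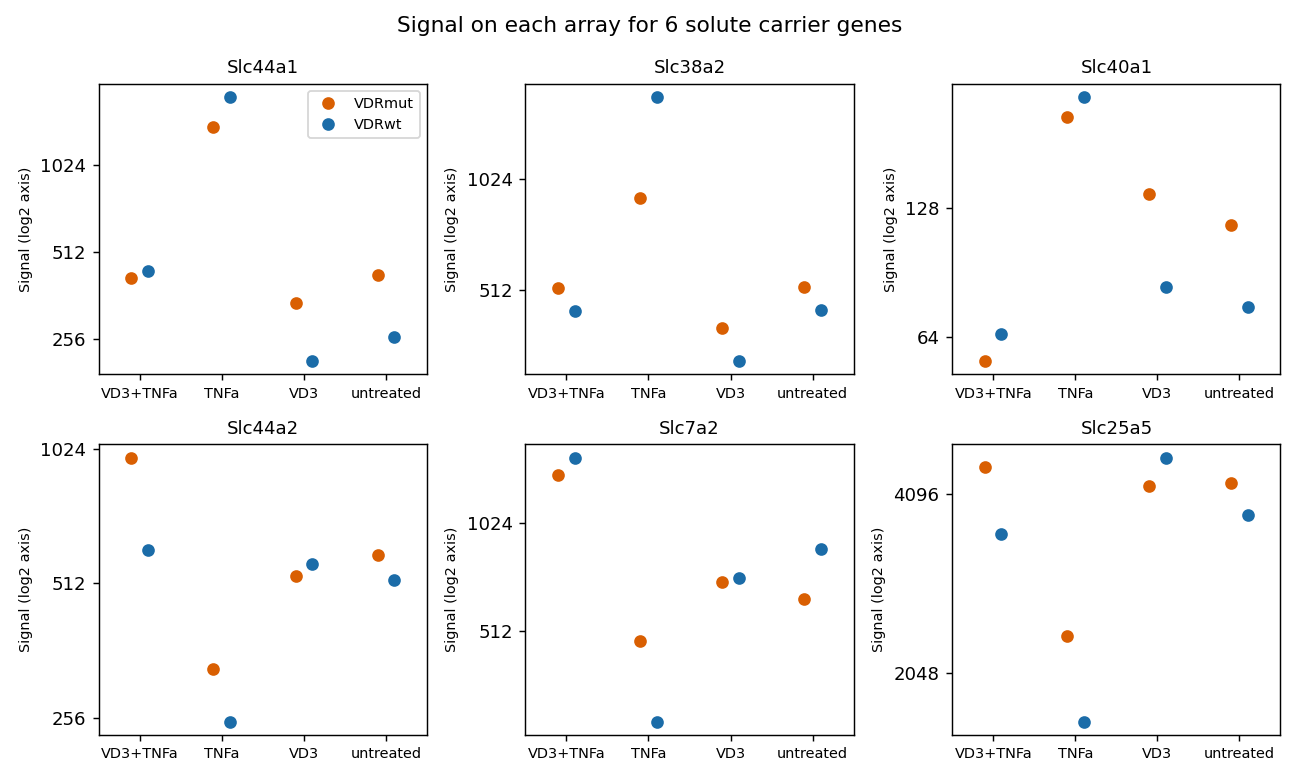
Signal (log2 axis) on each array for 6 genes, with VDRmut in orange left of VDRwt in blue. Slc44a1, Slc38a2 and Slc40a1 are highest, and Slc44a2, Slc7a2 and Slc25a5 lowest, on the arrays with TNFa alone.

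VD3 without TNFa passed for 0 of 140 genes in limma, and for 0% of all probe sets. An unadjusted p under 0.05 was found for 8 members (5.71%), against 7.61% of all. The receptor genotype passed for 0 members over the 4 matched treatments, against 0.0623% of all probe sets, with 6 members (4.29%) at an unadjusted p under 0.05, against 7.37% of all. The lowest adjusted p there was 0.622, shared by Slc38a1, a glutamine carrier (-0.80, VDRmut minus VDRwt), and Slc1a5 (0.73). Whether the VD3 change, averaged over cells with and without TNFa, differed by genotype was tested with 2 residual degrees of freedom. In limma 0 members and 0% of all probe sets passed. In that test, 3 members (2.14%) had an unadjusted p under 0.05, against 3.04% of all. The VD3 change in TNFa-treated cells was not tested by genotype on its own.

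Genes that work beside the carriers gave the following counts with TNFa alone, beside 11.1% of all probe sets called. With lists of 6 to 11 tested genes, such counts say nothing particular to a list. Of 11 tested genes of the amino acid starvation response, 1 rose and 2 fell. Mthfd2 (2.06), a mitochondrial folate enzyme, rose, and Eif4ebp1 (-1.10), a repressor of translation, and Psat1 of serine synthesis fell. Psat1 was Present on only 1 untreated array and on neither TNFa-alone array, so its 2.63-fold lower signal is not a bound. Of 6 tested arginine and polyamine genes, Arg2 rose (1.08) and Arg1, an arginase, was Absent on both TNFa-alone arrays and at least 12.5-fold lower than in untreated cells (adjusted p = 0.00152). Arg1 read 85.3 (VDRmut) and 484 (VDRwt) under VD3+TNFa, 9.4 (VDRmut) and 27.5 (VDRwt) under TNFa alone, 83.1 (VDRmut) and 213 (VDRwt) under VD3 and 149 (VDRmut) and 272 (VDRwt) untreated. Its TNFa change differed with VD3 (adjusted p = 0.0116), with no size given because the TNFa-alone signals are bounds. Of 10 tested iron, copper and zinc genes, Ncoa4 (1.03), which delivers ferritin for degradation, rose, and the metallothioneins Mt1 (-1.65) and Mt2 (-1.85) fell. None of 10 cystine and glutathione genes passed. Of 10 tested partners and carriers under other names 1 fell, Mfsd10, with a 2.2-fold lower signal. Mfsd10 was Present on only 1 untreated array and Absent on both TNFa-alone arrays, so this is not a bound either. Of 8 matrix enzymes served by carriers 1 fell, Got2 (-0.75).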

How the data were processed

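Gene expression was measured on 8 arrays, grouped by their titles. Per the file headers, the authors deposited a linear signal intensity and a Present, Marginal or Absent call for 22690 probe sets. MAS5 appears, with no version, in what the submitters' processing notes list. The genome build is not given in the sources used here. The arrays shared a 2% trimmed mean of 200.1. The number of arrays, 1 a group, limits the precision.

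Signals were put on the log2 scale, after 3 signals were raised to 0.1, and 64 control probe sets were left out. Probe sets Present on at least 2 arrays were kept (12832). Symbols came from the platform annotation: 20393 probe sets had 1 symbol, 691 several and 1606 none, and all 140 members matched RefSeq. limma 3.58.1 (R 4.3.3; lmFit, eBayes with a trend) fitted genotype plus a 4-level treatment with 3 residual degrees of freedom, and p-values were adjusted by Benjamini-Hochberg over all 12832, with a threshold of 0.05. The fit was tested on simulated data. Errors are limma standard errors. Mean signals served only to pick probe sets and genes to describe.

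The members, classes, lists and tests were chosen with earlier results of these data known. Values on all arrays are given for genes called in any comparison, genes that changed by a log2 of 1 or more in 1 direction in both genotypes with TNFa, and the 2 of highest mean signal in each class. The promoter motifs were chosen after member results were seen, and all 7 that were searched are reported. Alternatives covered leaving out arrays, normalization, the detection filter, a signal floor, the trend, scan day and all probe sets of a gene.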

Additional observations from a re-analysis of the deposited data

Results flagged for a closer look

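The change of the TNFa response with VD3 passed its own test for Slc7a2, with a difference of 2.05 on the log2 scale (limma, adjusted p = 0.044). Slc7a2 was lower under TNFa alone than in untreated cells in both genotypes and higher under VD3+TNFa than under VD3 in both. Groups of 1 array could not be searched for outlying samples.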

How the results depend on the processing

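Over 558 refits of single-gene results, 299 kept their side of the threshold, 251 lost the call, 8 gained one and 0 reversed. For TNFa alone, the count of 15 genes was 1 to 12 when each array was left out in turn (1 without VDRwt TNFa, 2 without VDRwt untreated), 2 with a signal floor of 50, 7 with no detection filter, 6 without the trend and 1 with scan day as a block. Over all probe sets those counts were 364 to 1089, 512, 1035, 946 and 341, against 1418. For TNFa with VD3, the count of 0 was 0 to 6 when an array was left out (6 without VDRwt untreated, 5 without VDRmut untreated) and 2 when the pair of VDRmut arrays with a low actin ratio was left out. For the difference of the TNFa changes, the count of 1 was 0 to 2 when an array was left out, 3 without both low-actin arrays and 2 with Present on at least 4 arrays. It was 0 with the floor, with no detection filter, without the trend and with scan day as a block. For VD3+TNFa against TNFa alone, the count of 15 was 1 to 20 when an array was left out (1 without VDRwt TNFa, 2 without VDRwt VD3+TNFa and 2 without VDRmut VD3+TNFa), 0 with the floor, 6 with no detection filter and 6 without the trend. VD3 alone, genotype and genotype by VD3 stayed at 0 members in all alternatives run, and the last could not be fitted without the low-actin arrays. Leaving out both low-actin arrays also cost calls for TNFa alone and for VD3+TNFa against TNFa alone, those of Slc25a5 and Slc37a4 among them in both. Over the single-gene results, that refit lost more calls than it gained and reversed 0. The cause of these changes was not tested, and the scan day block cannot be told apart from a genotype difference in the TNFa change. Quantile normalization changed the sign of 0 called genes. Where an array was left out, the lone array of its treatment was assumed to vary like the others. The genotype term already sets treatments against each other within a genotype, and no further pairing was available, since each group holds 1 array with no replicate number.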

Other observations

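The VDRmut arrays of low actin ratio, VD3+TNFa and untreated, were both below the VDRmut TNFa and VD3 arrays for 42 of 140 solute carrier genes (30%), against 22% of all probe sets. The same 2 treatments in VDRwt, whose actin ratios were not low, gave 22 of 140 (15.7%), against 13.6% of all. The opposite order held for 18 members in VDRmut (12.9%), against 17.1% of all. Both TNFa-alone arrays lay above the other 6 arrays for 19 members (13.6%) and below them for 27 (19.3%), against 14.1% and 13.7% of all probe sets. These counts were chosen after the data were seen, and no test was made of them.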
